A study of Mus musculus with 6 samples.

Results

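The genes described here sit at the branch point of pyruvate. They were chosen by name for their place in the pathway. They are 10 of the 22183 genes in the count table: the lactate dehydrogenase genes Ldha and Ldhb, the monocarboxylate transporter genes Slc16a1 and Slc16a3, the pyruvate dehydrogenase kinase genes Pdk1, Pdk2 and Pdk4, the pyruvate dehydrogenase subunit gene Pdha1, and the mitochondrial pyruvate carrier genes Mpc1 and Mpc2. Each had 1 row in the table, and all 10 passed the filter on low counts. RNA-seq had been performed on cells taken from the peritoneum of wild-type male C57BL/6J mice and selected for CD31, the surface protein by which peritoneal endothelial cells (ECs) were isolated. The PD mice (n = 3, PD fluid 1 to 3) had received glucose-based peritoneal dialysis fluid by intraperitoneal injection for 6 weeks, and the saline mice (n = 3, Saline 1 to 3) had received saline by the same route for the same time. By their labels both groups were wild-type and differed in the injected fluid alone.

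Pyruvate, the end product of glycolysis, has 2 main fates. In the cytosol lactate dehydrogenase reduces it to lactate and regenerates the NAD+ that glycolysis needs, and the lactate leaves the cell through proton-coupled monocarboxylate transporters. Alternatively the carrier formed by MPC1 and MPC2 brings pyruvate into the mitochondrion, where the pyruvate dehydrogenase complex converts it to acetyl-CoA, and the PDK kinases switch that complex off by phosphorylating its E1 alpha subunit. ECs are known to rely on glycolysis for most of their energy and to release much of their pyruvate carbon as lactate.

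The libraries held 21973426 to 26374292 counts each. A list of 12 endothelial markers summed to 1124 to 1144 CPM (counts relative to the library total, scaled by the TMM factors of edgeR) in saline mice and to 1788 to 1856 CPM in PD mice, with 11 of the 12 higher in PD mice by edgeR's quasi-likelihood test. Among these, Pecam1, which encodes CD31 itself, was at 469 ± 19.4 CPM and 514 ± 7.85 CPM (mean ± SD, n = 3 each, as in all values below), a difference that did not pass the test, while the endothelial cadherin gene Cdh5 rose from 18.9 to 33.3 CPM. Ptprc, the gene for the leukocyte protein CD45, fell from 2373 ± 127 to 1473 ± 63.6 CPM. The 5 general leukocyte markers, Ptprc among them, had a sum 1.29-fold lower in PD mice. Of these, 4 were called lower, while Laptm5 was called higher (log2 fold change 0.31, edgeR adjusted p = 0.00202). Summed B cell markers were 2.14-fold lower in PD mice (all 8 genes), summed macrophage markers 4.09-fold higher (all 10 genes), mesothelial markers 10.7-fold higher (all 7) and fibroblast markers 9.13-fold higher (all 7). Pancreatic acinar markers summed to 1.05 to 2.86 CPM in saline mice and to 5831 to 6592 CPM in PD mice. The libraries labelled endothelial thus held RNA of several cell types in both groups, and in such bulk samples fewer cells of a type and less RNA per cell cannot be told apart.

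Of the 10 pyruvate genes, 4 rose in PD mice (Ldha, Slc16a1, Slc16a3 and Pdk4) and 3 fell (Pdk1, Mpc1 and Mpc2), with an adjusted p under 0.05 in edgeR (quasi-likelihood test, Benjamini-Hochberg over all genes) as the criterion, although Ldha, Slc16a1 and Pdk4 changed sign when the libraries were scaled to the endothelial markers instead. A call was common in this comparison: 58.9% of the 14005 genes tested were called, 31.1% higher and 27.8% lower, and the 7 of 10 is read against that share. The values of the groups did not overlap for 9 of the 10 genes, against 65.6% of all genes tested. The median log2 fold change of the 10 genes was -0.10, and that of all genes tested was 0.017. Among the changes, 2 were larger than 1 on the log2 scale, a rise of Slc16a3 and a fall of Pdk1, and the remaining 5 called genes changed by less than 0.5 in either direction. A fold change of at least 1.5 was met by these 2 of the 10, against 31.1% of all genes tested.

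**Figure D1:**
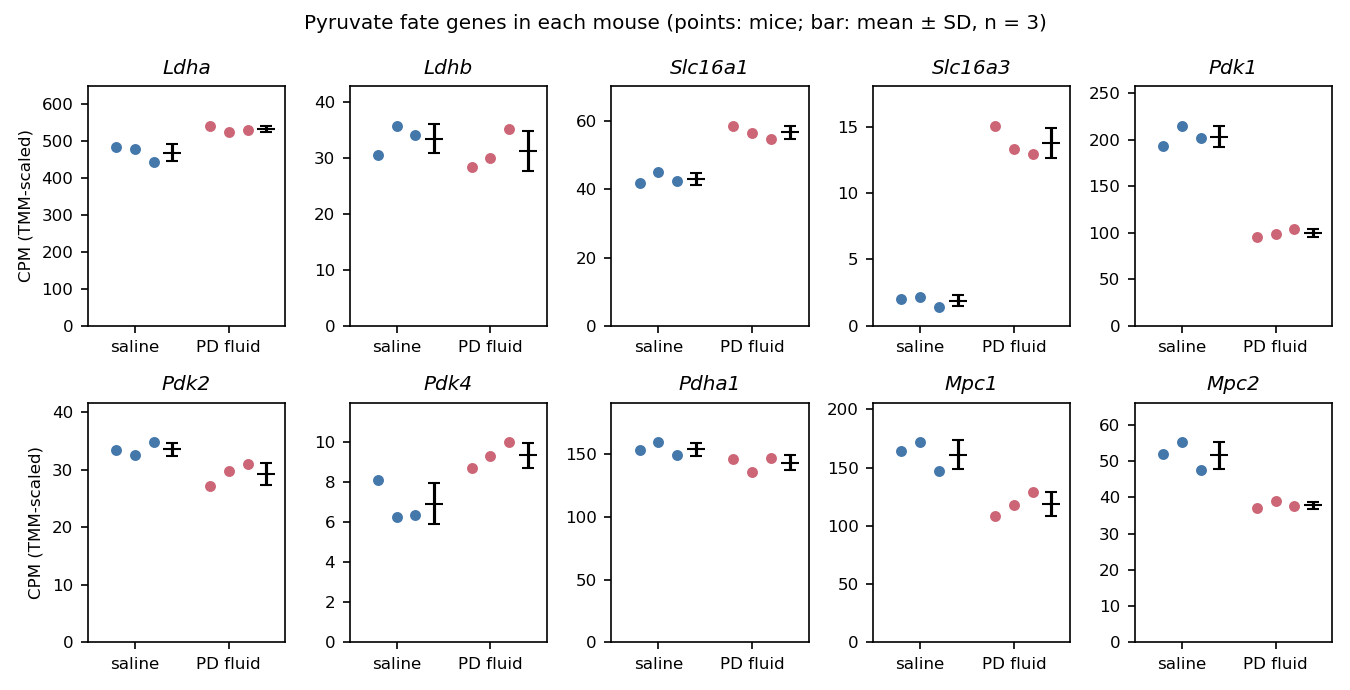
CPM (TMM-scaled, linear axes starting at 0) of each of the 10 pyruvate genes in every mouse, with saline and PD mice side by side, points for mice and a bar for the mean with its SD. Slc16a3 lay between 1.45 and 2.21 CPM in saline mice and between 13.0 and 15.0 CPM in PD mice, Pdk1 lay between 192.6 and 214.6 CPM and between 95.3 and 103.7 CPM, and Ldhb was the gene whose groups overlapped.

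Per kilobase of transcript (FPKM, the deposited length-scaled unit), Ldha was the most abundant of the 10 in saline mice at 295 FPKM, followed by Mpc1 at 179, Pdha1 at 53.8, Mpc2 at 50.1, Pdk1 at 39.0, Ldhb at 26.3, Pdk2 at 14.9, Slc16a1 at 9.71, Pdk4 at 2.09 and Slc16a3 at 0.898. Neighbours in this order did not overlap between mice, with the exception of Pdha1 and Mpc2. In PD mice the order changed at 2 places. Ldhb, at 25.1 FPKM, stood above Pdk1, at 19.2, and Slc16a3, at 6.23, stood above Pdk4, at 2.68. Pdk2 and Slc16a1, at 13.1 and 12.8 FPKM, overlapped between PD mice. The transcript lengths implied by counts and FPKM varied between mice by 1.36 times for Slc16a3 and by 1.18 times for Pdk4, so their FPKM values are less exact than those of the other genes.

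Ldha (ENSMUSG00000063229, GRCm38 chr7:46841475-46855627, plus strand) encodes the M subunit of lactate dehydrogenase, the form that favours the reduction of pyruvate to lactate. Its level was 483.2, 478.3 and 441.7 CPM in Saline 1 to 3 and 540.4, 523.9 and 529.4 CPM in PD fluid 1 to 3. Every PD mouse was above every saline mouse, by a small margin. The rise was 1.14-fold (log2 fold change 0.18, SE 0.06, 95% CI 0.05 to 0.31, adjusted p = 0.0205 in edgeR, by the Benjamini-Hochberg method), and it turned to -0.49 under endothelial scaling. The call was lost without Saline 3 (log2 fold change 0.14, edgeR adjusted p = 0.0815) and without PD fluid 2 (0.20, edgeR adjusted p = 0.0520), when 30.4% and 27.3% of all genes tested were called higher. Ldhb (ENSMUSG00000030246, chr6:142490249-142507957, minus strand), the gene of the H subunit that favours the oxidation of lactate, was at 30.5, 35.6 and 34.0 CPM in saline mice and at 28.4, 29.9 and 35.1 CPM in PD mice. The groups overlapped, and the difference did not pass the test (log2 fold change -0.10, SE 0.10, 95% CI -0.33 to 0.13, edgeR adjusted p = 0.429).

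Slc16a3 (ENSMUSG00000025161, chr11:120948480-120960868, plus strand) encodes MCT4, a transporter known for lactate export from highly glycolytic cells and as a target of hypoxia-inducible factors. It had 52, 48 and 35 counts in Saline 1 to 3 and 409, 318 and 286 counts in PD fluid 1 to 3, or 2.03, 2.21 and 1.45 CPM against 15.0, 13.3 and 13.0 CPM. The 3 PD mice lay close together, far above all saline mice. The rise was 7.27-fold (log2 fold change 2.86, SE 0.18, 95% CI 2.46 to 3.26, edgeR adjusted p = 2.85e-07), larger than the log2 fold change of 98.05% of all genes tested, and it was 2.18 under endothelial scaling. On the FPKM scale it was still 1 of the 2 least abundant of the 10 genes in PD mice.

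Slc16a1 (ENSMUSG00000032902, chr3:104638668-104658462, plus strand) encodes MCT1, a widely expressed transporter that carries lactate in either direction. Its level was 41.7, 45.1 and 42.6 CPM in saline mice and 58.5, 56.5 and 54.9 CPM in PD mice, so that the groups lay well apart. The rise was 1.31-fold (log2 fold change 0.39, SE 0.07, 95% CI 0.23 to 0.56, edgeR adjusted p = 0.000996), and it turned to -0.28 under endothelial scaling. On the FPKM scale, Slc16a3 made up 8.96, 10.5 and 5.68% of the summed Slc16a1 and Slc16a3 level in saline mice and 32.9, 32.6 and 32.5% in PD mice. The transporter pair thus held 24.3 percentage points more Slc16a3 in PD mice, 15.3 points when counts were used in place of FPKM, and Slc16a1 remained the more abundant of the pair in every mouse. A proportion of this kind does not depend on how the libraries were scaled. The Ldha share of the summed lactate dehydrogenase level was 91.8 ± 0.613% in saline mice and 93.1 ± 0.751% in PD mice, and these ranges overlapped.

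**Figure D2:**
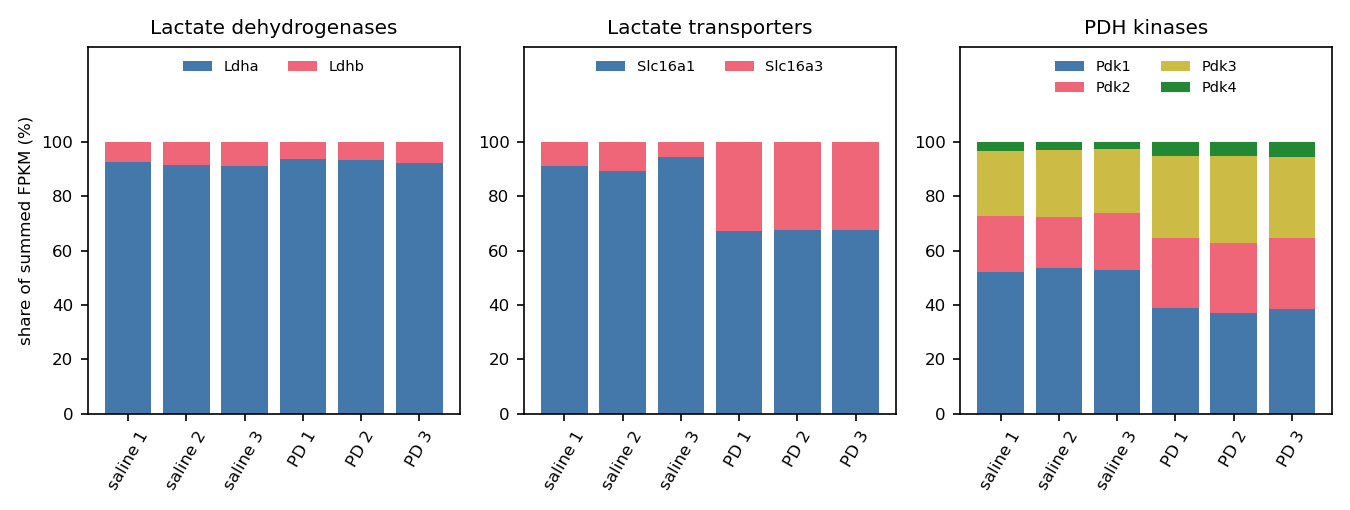
Share in percent of summed FPKM held by each gene within its family in every mouse, for lactate dehydrogenase, the monocarboxylate transporter pair and the 4 Pdk genes, with Saline 1 to 3 and PD fluid 1 to 3 as separate bars. Slc16a3 held 8.40% of the transporter pair on average in saline mice and 32.7% in PD mice, Pdk1 held 52.8% and 38.1% of the Pdk sum, and the Ldha shares overlapped between groups.

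Because Slc16a3, Ldha and Pdk1 are known targets of hypoxia-inducible factors, the 250 bases before their RefSeq start sites are shown, with those of Slc16a1 as the other transporter gene (GRCm38.p6, given 5′ to 3′ on the gene's strand, all plus). Capitals mark the hypoxia response element cores ACGTG and GCGTG on either strand, where CACGTG contains a core on both strands. The windows are chr11:120948817-120949066 for Slc16a3, chr7:46845554-46845803 for Ldha, chr3:104638414-104638663 for Slc16a1 and chr2:71872974-71873223 for Pdk1. Ldha and Pdk1 have 2 RefSeq windows each, of which the upstream one is printed.
Slc16a3: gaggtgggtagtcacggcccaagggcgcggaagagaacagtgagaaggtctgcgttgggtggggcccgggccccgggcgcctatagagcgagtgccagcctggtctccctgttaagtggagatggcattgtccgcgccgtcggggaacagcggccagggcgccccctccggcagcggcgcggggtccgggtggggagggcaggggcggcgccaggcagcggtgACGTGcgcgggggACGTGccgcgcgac
Ldha: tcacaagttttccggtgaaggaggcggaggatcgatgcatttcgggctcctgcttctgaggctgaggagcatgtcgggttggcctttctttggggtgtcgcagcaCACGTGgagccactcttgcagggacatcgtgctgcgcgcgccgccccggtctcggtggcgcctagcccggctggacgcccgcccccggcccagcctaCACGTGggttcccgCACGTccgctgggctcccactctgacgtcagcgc
Slc16a1: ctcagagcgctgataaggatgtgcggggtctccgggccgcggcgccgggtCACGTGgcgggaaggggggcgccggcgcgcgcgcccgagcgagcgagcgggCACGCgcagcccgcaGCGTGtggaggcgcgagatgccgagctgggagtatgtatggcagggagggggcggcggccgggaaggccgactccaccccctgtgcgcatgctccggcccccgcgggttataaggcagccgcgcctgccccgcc
Pdk1: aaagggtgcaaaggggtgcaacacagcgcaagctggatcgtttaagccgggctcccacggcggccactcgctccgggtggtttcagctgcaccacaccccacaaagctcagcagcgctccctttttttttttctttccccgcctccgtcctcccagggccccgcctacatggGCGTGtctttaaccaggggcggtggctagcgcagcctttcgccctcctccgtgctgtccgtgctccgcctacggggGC

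In Slc16a3 both cores lay close to the start site, beginning 27 and 14 bases before it. Ldha held cores from 145 to 34 bases before its start, Slc16a1 from 200 to 134, and Pdk1 at 78 and at 2, the last of which runs past the start and is shown by its first bases alone. In the windows not printed, Ldha (starting at chr7:46846832) held cores at 59 bases before and 40 after the start, and Pdk1 (starting at chr2:71874654) held none. The genes printed moved in different directions, with Slc16a3, Ldha and Slc16a1 higher and Pdk1 lower in PD mice (Ldha and Slc16a1 lower under endothelial scaling). RefSeq windows were found for all 10 genes, 14 windows in all, each from 250 bases before to 50 after a start site. Either core was present in 11 of the 14, in at least 1 window of every gene, and in 43.8% of 32817 mouse windows of the same length. The E-box CACGTG was in 3 of the 14 and in 7.15% of all windows. The FOXO motif GTAAACA, the estrogen-related receptor motif TNAAGGTCA and the PPAR direct-repeat motif had no match in the 14 windows, and were in 3.65%, 1.28% and 0.0396% of all windows. The shares were not adjusted for base composition. The windows of the 10 genes with a core had 56.7 to 73.7% G and C, and those without had 40.3, 57.7 and 63.7%. These matches describe the sequence and were not tested as binding sites.

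Among the kinases that switch off pyruvate dehydrogenase, Pdk1 was called lower and Pdk4 higher with TMM scaling. Under endothelial scaling the log2 fold changes of Pdk1, Pdk2, Pdk3 and Pdk4 were -1.71, -0.87, -0.89 and -0.25. Pdk1 (ENSMUSG00000006494, chr2:71873224-71903858, plus strand), which encodes the isoform best known for its induction in hypoxia, was at 192.6, 214.6 and 202.2 CPM in Saline 1 to 3 and at 95.3, 99.2 and 103.7 CPM in PD fluid 1 to 3. Every PD mouse was at about the same level, far below the lowest saline mouse. Its decrease was 2.04-fold (log2 fold change -1.03, SE 0.07, 95% CI -1.18 to -0.88, edgeR adjusted p = 3.37e-07), and 1.86% of all genes tested had a lower log2 fold change. Under endothelial scaling it was -1.71.

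Pdk4 (ENSMUSG00000019577, chr6:5483351-5496309, minus strand), the isoform induced in fasting and by fatty acids through PPAR and FOXO factors, was at 8.12, 6.27 and 6.38 CPM in saline mice and at 8.68, 9.31 and 9.97 CPM in PD mice. The lowest PD mouse stood just above the highest saline mouse, Saline 1. The rise was 1.34-fold (log2 fold change 0.42, SE 0.15, 95% CI 0.09 to 0.76, edgeR adjusted p = 0.0326) and turned to -0.25 under endothelial scaling (edgeR adjusted p = 0.170). The Pdk4 call was lost under more alternatives than any of the other 6 called genes, namely without Saline 2 (log2 fold change 0.36, edgeR adjusted p = 0.0832), Saline 3 (0.36, 0.0922), PD fluid 2 (0.43, 0.0779) or PD fluid 3 (0.38, 0.0891), with DESeq2 (0.41, adjusted p = 0.0637), and with the replicate number as a block (0.43, edgeR adjusted p = 0.0524), a fit in which 6 of the 10 genes and 56.5% of all genes were called. Pdk2 (ENSMUSG00000038967, chr11:95026258-95041354, minus strand), the most widely expressed isoform, was at 33.4, 32.5 and 34.7 CPM in saline mice and at 27.2, 29.8 and 30.9 CPM in PD mice. The groups did not overlap, but the difference did not pass the test (log2 fold change -0.20, SE 0.09, 95% CI -0.39 to -0.0027, edgeR adjusted p = 0.0749).

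The makeup of the Pdk family shifted with Pdk1. On the FPKM scale Pdk1 held 52.0, 53.6 and 52.8% of the sum of the 4 Pdk genes in saline mice and 38.9, 37.0 and 38.4% in PD mice, a difference of -14.7 percentage points. The shares of Pdk2 and of Pdk3, the fourth kinase gene, were 20.2% and 24.2% in saline mice and 25.9% and 30.7% in PD mice. Pdk3 itself did not pass the test (log2 fold change -0.21, edgeR adjusted p = 0.0637). Pdk4 held 2.83% and 5.31%. None of these shares overlapped between groups. Pdk1 remained the most abundant Pdk gene in every mouse, and its ratio to Pdha1 on the FPKM scale was 0.725 in saline mice and 0.381 in PD mice.

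Pdha1 (ENSMUSG00000031299, chrX:160122209-160138413, minus strand), the E1 alpha subunit that the kinases phosphorylate, was at 152.9, 159.2 and 149.0 CPM in saline mice and at 146.4, 136.0 and 147.0 CPM in PD mice. The groups lay side by side without overlap. The difference did not pass the test (log2 fold change -0.10, SE 0.06, 95% CI -0.24 to 0.04, edgeR adjusted p = 0.179).

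Both genes of the mitochondrial pyruvate carrier fell, and by the same amount. Mpc1 (ENSMUSG00000023861, chr17:8282904-8297661, plus strand) was at 164.2, 171.5 and 147.2 CPM in saline mice and at 108.7, 117.7 and 129.3 CPM in PD mice. Mpc2 (ENSMUSG00000026568, chr1:165460637-165481214, plus strand) was at 52.0, 55.1 and 47.6 CPM in saline mice and at 36.9, 38.9 and 37.6 CPM in PD mice. Neither gene overlapped between groups, and PD fluid 3 had the highest Mpc1 of the PD mice. The decrease was 1.36-fold for Mpc1 (log2 fold change -0.44, SE 0.08, 95% CI -0.62 to -0.26, edgeR adjusted p = 0.000892). For Mpc2 it was also 1.36-fold (log2 fold change -0.45, SE 0.08, 95% CI -0.63 to -0.27, edgeR adjusted p = 0.000823). MPC1 and MPC2 are known to work as a heterodimer, and the FPKM ratio of their transcripts was 3.57 in saline mice and 3.54 in PD mice, with overlapping ranges.

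**Figure D3:**
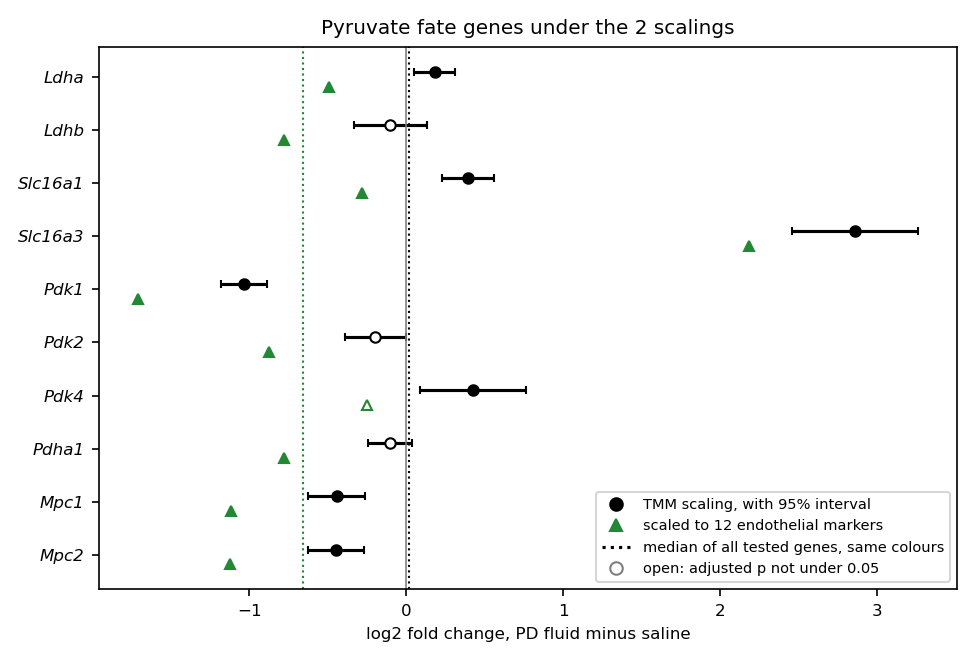
Log2 fold change (PD minus saline) of the 10 pyruvate genes from edgeR with TMM scaling (circles, with 95% confidence intervals) and with scaling to 12 endothelial markers (triangles); open symbols did not pass the test and dotted lines mark the median of all genes on each scale. With TMM scaling 4 genes were higher and 3 lower, and with endothelial scaling Slc16a3 alone was higher, at 2.18, while Ldha, Slc16a1 and Pdk4 changed sign to -0.49, -0.28 and -0.25.

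The scaling of the libraries set the direction of the smaller changes. Scaling to endothelial markers takes their summed RNA as equal in both groups, which was not tested. With TMM scaling the 12 markers rose unequally, from a log2 fold change of 0.13 for Pecam1 to 1.65 for Tie1. Ldha, Slc16a1 and Pdk4, at 0.18, 0.39 and 0.42, were above Pecam1 and below each of the other markers. When the libraries were scaled to the summed counts of the 12 endothelial markers, the median log2 fold change of all genes moved from 0.017 to -0.66, and 16.4% of all called genes were higher in PD mice, against 52.9% with TMM scaling. On that scale Slc16a3 rose, 8 of the 10 pyruvate genes fell, and Pdk4 was not called, against 12.4% higher and 63.2% lower of all genes tested. Relative to the shifted median, the differences on the log2 scale were 2.84 for Slc16a3, -1.05 for Pdk1 and -0.46 for both Mpc1 and Mpc2. For Slc16a1, Pdk4 and Ldha they were 0.37, 0.41 and 0.17. These values are close to those with TMM scaling by construction, because the rescaling moves all genes by nearly the same amount.

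The markers of other cell types moved along with several of these genes. Per 1000 CPM of summed B cell markers, Pdk1 was at 29.6, 33.2 and 32.4 CPM in saline mice and at 31.8, 33.1 and 34.8 CPM in PD mice, so that the groups overlapped on this scale. Per 1000 CPM of T cell markers, by contrast, it was at 72.6 to 77.5 CPM in saline mice and at 48.3, 48.6 and 49.99 CPM in PD mice. With 5 general leukocyte markers the ranges were 33.0 to 37.1 CPM in saline mice and 21.2 to 23.8 CPM in PD mice. The groups overlapped on neither of these scales. Mpc1 and Mpc2 did not follow the B cell markers in this way. Per 1000 CPM of B cell markers Mpc1 was at 23.6 to 26.5 CPM in saline mice and at 36.3 to 43.4 CPM in PD mice.

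The same division for Slc16a3 gave overlapping groups with 3 marker lists. Per 1000 CPM of fibroblast markers it was at 15.1 to 24.8 CPM in saline mice and at 15.0 to 18.2 CPM in PD mice, and with neutrophil markers the ranges were 38.9 to 62.5 CPM and 42.5 to 51.0 CPM. With mesothelial markers they were 97.0 to 198 CPM and 85.2 to 114 CPM. In saline mice these lists, in the order given, summed to only 89.4 to 95.9, 35.4 to 40.5 and 11.2 to 14.9 CPM. The neutrophil sum was 7.95-fold higher in PD mice, and 5 of its 6 tested genes were called higher. Their rises were unequal, with S100a8 58.4-fold higher, while Cxcr2 did not pass the test (1.03-fold) and Ly6g was below the filter. Per 1000 CPM of macrophage markers Slc16a3 was at 0.752, 0.801 and 0.554 CPM in saline mice and at 1.42, 1.21 and 1.13 CPM in PD mice, without overlap, and per 1000 CPM of endothelial markers it was 4.54-fold higher in PD mice. These pairings of genes with marker lists were chosen after their values were seen. The part of cell composition in the changes of Slc16a3 and Pdk1 was not tested.

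**Figure D4:**
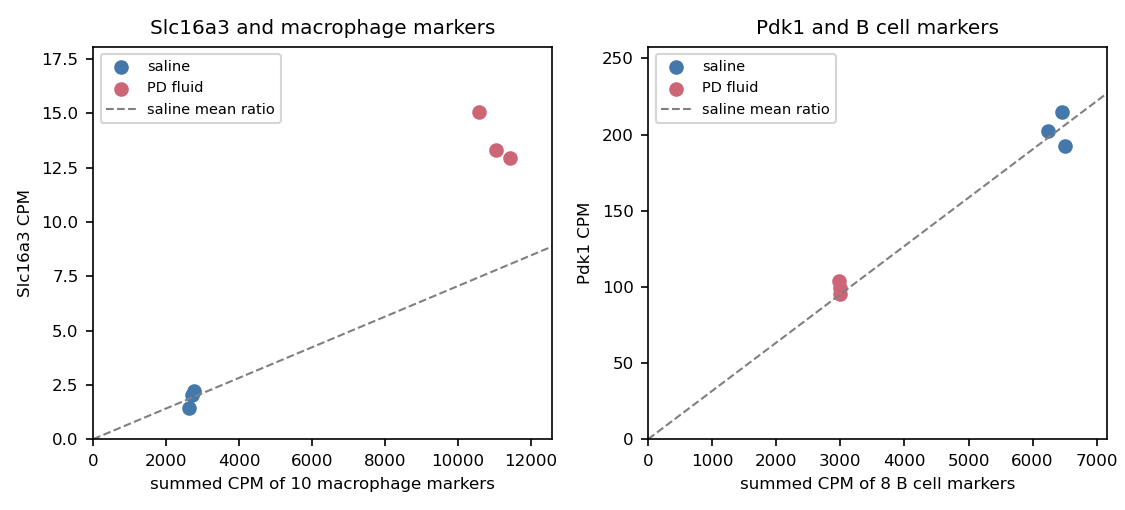
Left, Slc16a3 (CPM) against the summed CPM of 10 macrophage markers, and right, Pdk1 (CPM) against the summed CPM of 8 B cell markers, with a point for every mouse and a dashed line for the mean ratio in saline mice. The PD mice lay above the line for Slc16a3 and beside it for Pdk1, with summed B cell markers at 6244 to 6511 CPM in saline mice and 2977 to 2997 CPM in PD mice, and summed macrophage markers at 2617 to 2763 CPM and 10590 to 11443 CPM.

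Among all genes with a mean of at least 10 CPM, those whose log2 level over the 6 mice was most like that of Slc16a3 were Ly6c1, Il6 and Sorbs2 (Pearson r of 0.99948, 0.99947 and 0.99946 over 6 mice). Il6, the gene of the cytokine interleukin 6, rose from 2.81 to 22.6 CPM. The genes most like Pdk1 were Zfp94, Top2b and Add3 (Pearson r of 0.99957, 0.99936 and 0.99928). With 2 groups of 3, a high r mainly reflects a difference between the groups that is large beside the spread within them, and it is given as a description.

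Around the 10 genes, a wider list of 59 genes of pyruvate and lactate handling was examined, of which 52 passed the filter on low counts. Of these, 11 rose, 20 fell and 21 did not pass the test, so that 59.6% were called, close to the 58.9% of all genes. The median log2 fold change was -0.04. With endothelial scaling 3 of them were higher (Gpt2, Me1 and Epas1) and 39 lower, beside 12.4% and 63.2% of all genes tested. The 7 genes below the filter were Ldhc, Ldhal6b, Slc16a8, Slc5a8, Slc5a12, Pklr and Ppara, with at most 8 counts in any mouse.

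**Figure D5:**
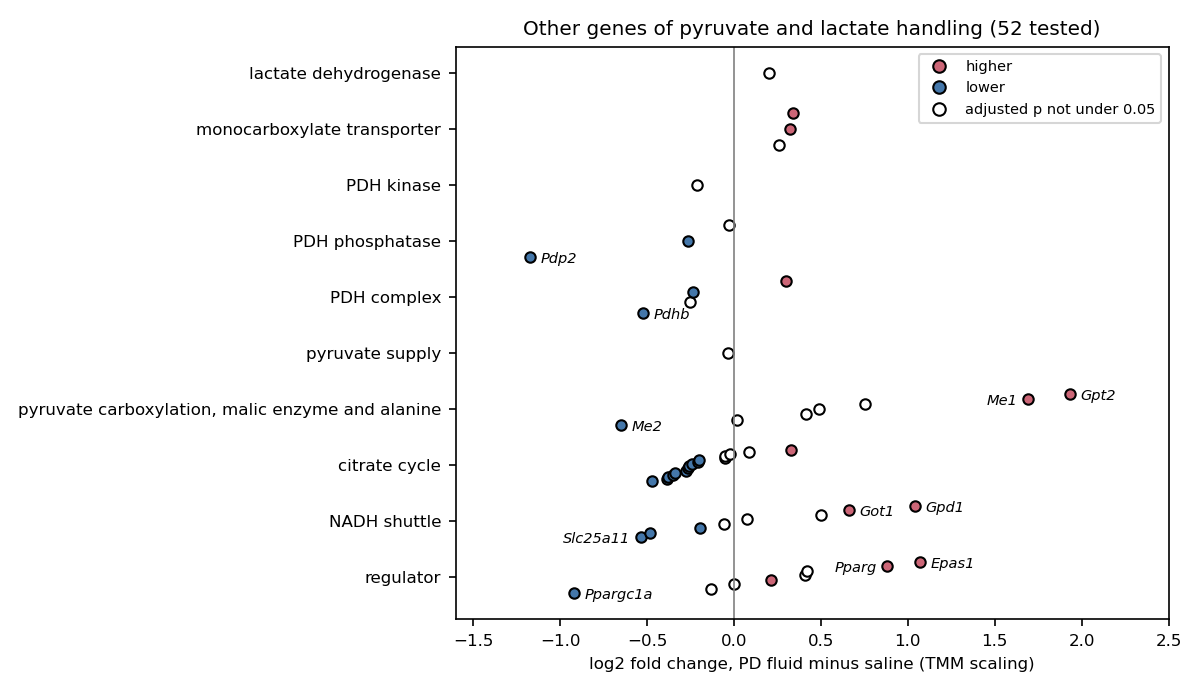
Log2 fold change (PD minus saline, TMM scaling) of the 52 tested genes of the wider pyruvate and lactate list, grouped by role, with filled points for genes called higher or lower and open points for the rest. Gpt2 and Me1 lie at 1.93 and 1.69 and Pdp2 at -1.17. As called genes, 11 of the 16 citrate cycle genes lie on the lower side, beside 27.8% of all genes tested. With endothelial scaling 3 of the 52 genes were higher and 39 lower, beside 12.4% and 63.2% of all genes tested.

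Both chaperones that bring the transporters to the cell surface rose with TMM scaling and were lower with endothelial scaling. Bsg, which encodes basigin, the partner of MCT1 and MCT4, was at 245, 250 and 247 CPM in saline mice and at 292, 313 and 335 CPM in PD mice, a log2 fold change of 0.34 (edgeR adjusted p = 0.000997) that turned to -0.33 under endothelial scaling. Emb, which encodes embigin and was named after its values were seen, had a log2 fold change of 0.32 (edgeR adjusted p = 0.0025) and turned to -0.35. Slc16a7, the gene of MCT2, did not pass the test (0.26, edgeR adjusted p = 0.0854) and was called lower under endothelial scaling (-0.42, edgeR adjusted p = 0.00951).

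Around the pyruvate dehydrogenase complex, 2 of the 3 phosphatase genes fell, beside 27.8% of all genes tested. These were Pdp1 and Pdp2, whose products reverse the action of the kinases. Pdpr, the third, named after its values were seen, did not pass the test (log2 fold change -0.03, edgeR adjusted p = 0.898). Under endothelial scaling all 3 were called lower, beside 63.2% of all genes. Pdp2, a catalytic subunit, was at 17.8, 11.9 and 16.3 CPM in saline mice and at 5.30, 6.33 and 8.88 CPM in PD mice (log2 fold change -1.17, SE 0.21, edgeR adjusted p = 0.000638). Pdp1, another catalytic subunit named after its values were seen, had a log2 fold change of -0.26 (edgeR adjusted p = 0.0456) and lost its call when any mouse other than PD fluid 2 was left out (edgeR adjusted p of 0.0660 to 0.164). A gene that inhibits the complex, Pdk1, and a gene that activates it, Pdp2, were therefore both lower in PD mice. Of the 4 other subunit genes of the complex, 2 fell and 1 rose, beside 27.8% and 31.1% of all genes tested. Under endothelial scaling all 4 were called lower, beside 63.2% of all genes. Pdhb, the E1 beta subunit, fell from 237 ± 17.5 to 165 ± 13.3 CPM (log2 fold change -0.52, edgeR adjusted p = 0.000199). Dld and Pdhx were named after their values were seen. Dld fell (-0.23, edgeR adjusted p = 0.0152), and Pdhx did not pass the test (-0.26, edgeR adjusted p = 0.0529). Dlat, the E2 subunit, rose with a log2 fold change of 0.30 (edgeR adjusted p = 0.0120), a call that was lost without PD fluid 2 (0.25, edgeR adjusted p = 0.0650) and a direction that turned to -0.38 under endothelial scaling. Pkm, whose product makes pyruvate, did not pass the test (log2 fold change -0.04, edgeR adjusted p = 0.596).

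Pyruvate can also be carboxylated, made into alanine or exchanged with malate. Of 7 tested genes in this role, 2 rose, 1 fell and 4 did not pass the test. That is a share of 42.9% called, beside 58.9% of all genes tested. Under endothelial scaling 2 were called higher and 2 lower, beside 12.4% and 63.2% of all genes tested. Pcx, the pyruvate carboxylase gene, was named after its values were seen and did not pass the test (log2 fold change 0.75, edgeR adjusted p = 0.05001). Gpt2, the mitochondrial alanine aminotransferase that interconverts pyruvate and alanine, was at 4.41, 5.86 and 6.87 CPM in saline mice and at 20.1, 23.0 and 22.5 CPM in PD mice (log2 fold change 1.93, SE 0.16, edgeR adjusted p = 2.32e-06). Me1, the cytosolic malic enzyme that makes pyruvate and NADPH, was at 1.48, 1.98 and 1.78 CPM in saline mice and at 6.40, 5.37 and 5.12 CPM in PD mice (log2 fold change 1.69, SE 0.21, edgeR adjusted p = 5.39e-05). Me2, a mitochondrial malic enzyme, fell from 340.0 ± 13.7 to 217 ± 25.5 CPM (log2 fold change -0.65, edgeR adjusted p = 7.04e-05). Me1 and Me2 moved in opposite directions with either scaling. Me3, the other mitochondrial malic enzyme gene, named after its values were seen, did not pass the test (log2 fold change 0.41, edgeR adjusted p = 0.233, and -0.27 under endothelial scaling).

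Of the 16 citrate cycle genes, which act on the acetyl-CoA that pyruvate dehydrogenase supplies, 11 fell, 1 rose and 4 did not pass the test, with a median log2 fold change of -0.25, beside 58.9% of all genes tested called and 27.8% called lower. Under endothelial scaling all 16 were called lower, beside 63.2% of all genes. The largest fall was that of Sucla2, a succinyl-CoA synthetase subunit, from 194 ± 6.92 to 140 ± 14.8 CPM (log2 fold change -0.47, edgeR adjusted p = 0.000442). Dlst, a subunit of 2-oxoglutarate dehydrogenase, rose (0.33, edgeR adjusted p = 0.0102) and turned to -0.35 under endothelial scaling. Another 8 genes belong to the shuttles that carry the reducing power of cytosolic NADH into mitochondria, the alternative to lactate formation. Of these, 2 rose and 3 fell, a share of 62.5% called beside 58.9% of all genes tested. Under endothelial scaling none was called higher and 5 were called lower, beside 12.4% and 63.2% of all genes tested. Slc25a11, the oxoglutarate carrier of the malate-aspartate shuttle, fell from 128 ± 2.51 to 88.5 ± 3.18 CPM (log2 fold change -0.54, edgeR adjusted p = 3.69e-05). Gpd1, the cytosolic glycerol-3-phosphate dehydrogenase, rose from 1.52, 1.48 and 1.24 CPM in saline mice to 3.16, 1.97 and 3.62 CPM in PD mice (log2 fold change 1.04, SE 0.29, edgeR adjusted p = 0.00937), and its call was lost under endothelial scaling (0.37, edgeR adjusted p = 0.265). The other 3 called genes were named after their values were seen. Got1, an aspartate aminotransferase, had a log2 fold change of 0.66 (edgeR adjusted p = 0.000134) that was -0.014 under endothelial scaling, and Mdh1, the cytosolic malate dehydrogenase, had a log2 fold change of -0.48 (edgeR adjusted p = 0.000154). Gpd2, the mitochondrial glycerol-3-phosphate dehydrogenase, was at -0.19 (edgeR adjusted p = 0.0435) and lost its call whichever mouse was left out (edgeR adjusted p of 0.0584 to 0.154).

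Of 8 tested genes for regulators of the pyruvate genes, 3 rose, 1 fell and 4 did not pass the test, a share of 50% called beside 58.9% of all genes tested. Under endothelial scaling 1 was called higher (Epas1) and 4 lower, beside 12.4% and 63.2% of all genes tested. Epas1, which encodes the hypoxia-inducible factor HIF-2 alpha of ECs, was at 98.6, 73.8 and 109 CPM in saline mice and at 232, 182 and 178 CPM in PD mice (log2 fold change 1.07, SE 0.14, edgeR adjusted p = 7.28e-05), and its log2 fold change was 0.39 under endothelial scaling (edgeR adjusted p = 0.0177). Hif1a, named after its values were seen, was at 241 ± 16.4 CPM and 280 ± 9.83 CPM (log2 fold change 0.22, edgeR adjusted p = 0.0162), a call lost without Saline 1 (0.19, edgeR adjusted p = 0.0676) and without Saline 3 (0.18, edgeR adjusted p = 0.0605), and it turned to -0.46 under endothelial scaling. Hypoxia-inducible factors are regulated mainly through protein stability, which these transcript levels do not measure. Pparg, also named after its values were seen, rose from 21.3 ± 2.54 to 39.2 ± 1.61 CPM (log2 fold change 0.88, edgeR adjusted p = 3.31e-05), and its call was lost under endothelial scaling (0.21, edgeR adjusted p = 0.0928). Ppargc1a, a coactivator of mitochondrial genes, fell from 4.84 ± 0.590 to 2.57 ± 0.328 CPM (log2 fold change -0.92, edgeR adjusted p = 0.00249).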

How the data were processed

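Total RNA of 6 libraries had been enriched for poly(A) RNA and sequenced on an Illumina NovaSeq. The submitters' processing notes name fastp 0.18.0, Bowtie2 2.2.8, HISAT2, StringTie and RSEM. The genome build and annotation are not given in the sources used here. The labels describe magnetic CD31 selection, and the study's supplementary methods describe sorting for CD31+ CD45- cells. The authors deposited whole-number counts per gene and FPKM values side by side. Columns with the authors' own comparison (log2 fold changes, p-values and adjusted values) were not used.

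Groups came from the titles. Genes passing filterByExpr were tested over the whole table with edgeR 4.0.16 in R 4.3.3 (TMM factors, quasi-likelihood test, Benjamini-Hochberg adjusted p under 0.05). The study names limma, whereas the deposited counts called for a count test, and limma-voom 3.58.1 and DESeq2 1.42.0 served as alternatives. CPM values are TMM-scaled. Family shares used deposited FPKM. The 10 genes, the wider list and the marker lists were chosen with earlier results of these data known. Named were all 10 genes, in each role of the wider list the called gene with the largest change in each direction, called genes with an absolute log2 fold change of at least 1, genes below the filter, and the 3 genes most like the largest riser and the largest faller. Coordinates are from GENCODE M21 (GRCm38), in which 22128 of 22183 identifiers were found, and promoters from RefSeq. The script was tested on simulated data. Replicate libraries differed by more than sampling noise (chi-square per degree of freedom 6.33 to 17.9), so no library appeared to be a repeat of another. The study gives each library as a separate mouse, whereas the labels do not, and the samples are called mice here on the study's account. The p-values set the difference between groups against the spread between these samples within a group.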

Additional observations from a re-analysis of the deposited data

How the results depend on the processing

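No call on a pyruvate gene changed with no filter, limma-voom or library totals alone. Endothelial scaling gave 1 higher and 8 lower, and 3 higher and 39 lower in the wider list, beside 12.4% higher and 63.2% lower of all genes tested. It reversed Ldha (-0.49), Slc16a1 (-0.28), Pdk4 (-0.25), Bsg (-0.33), Emb (-0.35), Dlat (-0.38), Dlst (-0.35), Got1 (-0.014), Slc16a7 (-0.42), Me3 (-0.27) and Hif1a (-0.46), and called Ldhb (-0.78), Pdk2 (-0.87), Pdha1 (-0.78), Pdk3 (-0.89) and Pkm (-0.71) lower. These shifts follow from its construction, which moves all genes down together. Requiring a fold change of at least 1.5 left 2 pyruvate genes, 1 higher (Slc16a3) and 1 lower (Pdk1). It left 9 of the 52 wider genes tested, 6 higher and 3 lower, beside 31.1% of all genes tested. Leaving out 1 mouse gave 2 to 4 pyruvate genes higher, 2 without Saline 3 and without PD fluid 2, where Ldha and Pdk4 lost their calls. With counts in place of FPKM, the Slc16a3 share differed by 15.3 points in place of 24.3 and the Pdk4 share by 2.99 in place of 2.48.

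Among wider genes, Gpd2 also lost its call with no filter (adjusted p = 0.0720), DESeq2 (0.0559), library totals alone (0.0521) and the block (0.0788). Whether the replicate numbers pair the samples cannot be decided here, because deviations from a mean of 3 mice depend on one another. Deviations from the group means correlated at 0.188, 0.0671 and -0.274 between same-numbered mice. Saline 1 correlated best with its own number, and Saline 2 and Saline 3 with another number. With the number as a block 6 pyruvate genes were called in place of 7 (3 higher, 3 lower) and 31 wider genes, a count equal to that without it. With 3 mice a group, Slc16a3 rested on 35 to 52 counts in saline mice, and the cause of calls lost by leaving out a mouse was not tested.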
